A study of Homo sapiens with 4 samples.

Results

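AMP-activated protein kinase (AMPK), the energy sensor that answers a shortage of ATP, was followed through its subunit genes and the genes of its upstream kinases in human lung adenocarcinoma cells with altered AK4. The set holds 8 genes, listed by name with earlier results of these data known. The subunits are the catalytic PRKAA1 and PRKAA2, the scaffold PRKAB1 and PRKAB2, and the nucleotide-binding PRKAG1 and PRKAG2. The kinases are STK11 (LKB1) and CAMKK2. All 8 genes together were read by 28 of the 41097 probe sets with 1 gene symbol, and they are 8 of the 19775 genes on the array. The samples were CL1-0 cells with an AK4 vector, CL1-0 cells with a control vector, CL1-5 cells with an AK4 shRNA and CL1-5 cells with a non-silencing shRNA, with 1 Affymetrix array each. All 4 were stably transduced lines kept under puromycin for 2 weeks. CL1-5 was derived from CL1-0 by selection for invasiveness, and AK4 belongs to the adenylate kinases of mitochondria, which move phosphate between adenine nucleotides. The sources used here do not state the promoter of the AK4 vector, the shRNA sequence or whether a line was a clone or a pool. With 1 array a group there is no replicate error, no test and no p-value for any value below.

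AMPK is a trimer of a catalytic α, a scaffolding β and a regulatory γ subunit, each encoded by more than one gene. When ATP falls, AMP and ADP bind the γ subunit and favour phosphorylation of the activation loop of α by LKB1, while CAMKK2 phosphorylates the same site when calcium rises. Adenylate kinases convert ADP to ATP and AMP, and AK4 has been linked to AMPK through this balance. The arrays read transcripts, not phosphorylation or kinase activity.

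Signals were brought to a common trimmed mean, and a floor of 6.94 in scaled signal marked the range too dim to order. A gene or probe set counted as measured in a comparison if either of its 2 arrays passed the floor, and as called where the ratio reached 2-fold, or 1 on the log2 scale. On each array between 56.6% and 63.4% of probe sets passed it. Of the 28 probe sets of the set, 20 lay above it on all 4 arrays, 6 on some arrays and 2 on none. The probe sets on none were 1555177_at of PRKAA1 and 215231_at of PRKAG2. The arrays differed between lines in the 3'/5' signal ratio for beta-actin, a stand-in for RNA quality, which was not itself measured. This ratio was 6.54 with the AK4 vector and 6.04 with the control vector in CL1-0. In CL1-5 it was 1.61 with AK4 shRNA and 1.34 with non-silencing shRNA. The BioB hybridisation control read 307 with the AK4 vector against 783 with the control vector, and 99.1 with AK4 shRNA against 106 with non-silencing shRNA. The deposited value was identical on both CL1-0 arrays for 4502 probe sets and on both CL1-5 arrays for 3287, but for 0 in any pair of arrays from different lines, so a common processing of both lines is not established and levels set across lines rest on the rescaling. The cells are labelled as alveolar type II cells. Of 12 markers of that type, 10 were read, and 8, 9, 7 and 7 of them lay above the floor with AK4 vector, control vector, AK4 shRNA and non-silencing shRNA. The transporter SLC34A2 lay below it on all 4 arrays, and surfactant protein gene SFTPD above it on the CL1-0 control vector array alone. The other 8 differed in direction between the lines. LAMP3, a lamellar body membrane gene, read 160 with the AK4 vector against 210.0 with the control vector in CL1-0, and lay below the floor on both CL1-5 arrays. LPCAT1, an enzyme of surfactant lipid synthesis, read 127 with the AK4 vector against 101 with the control vector, and 361 with AK4 shRNA against 349 with non-silencing shRNA. The transcription factor ETV5 and the lipid transporter ABCA3 lay above the floor on all 4 arrays, from 158 to 269 and from 36.3 to 78.2. The epithelial keratin genes KRT8 and KRT18 carried most of the difference in 6 epithelial markers, whose summed signal was 52.5 with the AK4 vector against 51.5 with the control vector, and 1783 with AK4 shRNA against 2027 with non-silencing shRNA. KRT7 was also brighter in CL1-5, but EPCAM and CDH1 were not. KRT19 lay below the floor in CL1-0 and near it in CL1-5, at 7.02 with AK4 shRNA and 8.63 with non-silencing shRNA. By their brightest probe sets EPCAM and CDH1 passed the floor only with the AK4 vector, at 9.46 and 9.81. Fibroblast, leukocyte and endothelial lists summed to between 19.0 and 125 on every array, and the leukocyte gene PTPRC was below the floor on all 4. In the same order of arrays, 2, 2, 4 and 4 of 6 fibroblast genes lay above the floor. So did 1, 1, 1 and 2 of 4 leukocyte genes and 2, 3, 3 and 3 of 5 endothelial genes. COL1A1 read 47.4 to 78.3 over the 4 arrays. PECAM1 read 54.0 with AK4 shRNA and 45.1 with non-silencing shRNA, against 6.20 with the AK4 vector and 7.12 with the control vector. In bulk RNA, fewer cells of a kind and less RNA per cell cannot be told apart, and the part of these lists in the differences between lines was not tested.

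The targeted gene was read by 4 probe sets. AK4 signals lay from 51.2 to 442 with AK4 shRNA, against 111 to 1056 with non-silencing shRNA, between 41.9% and 54.4% of the non-silencing value for each probe set. In CL1-0 they lay from 11.7 to 111 with the AK4 vector, against 12.4 to 115 with the control vector, or 84.3% to 96.6%. The array labelled AK4 vector thus showed no higher AK4 signal. The probes could not be placed relative to the vector insert, so directions drawn from that array rest on its label.

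Over the whole set, no gene was called in either AK4 comparison, and the largest differences lay in the scaffold gene PRKAB2 and the nucleotide-binding gene PRKAG2, both lower with the AK4 vector. In CL1-0, 0 of 8 genes were called, beside 4.39% of the 14677 genes measured (3.22% higher and 1.17% lower). Of 24 measured probe sets 3 were called, 1 higher and 2 lower, beside 4.88% of 27400 (3.15% higher and 1.72% lower). In CL1-5, 0 of 8 genes were called with AK4 shRNA, beside 0.104% of 15314 genes (0.0914% higher and 0.0131% lower). Of 22 probe sets 0 were called, beside 0.151% of 29160 (0.0652% higher and 0.0857% lower). The median log2 ratio of the 8 genes was -0.10 in CL1-0, where all genes had 0.05, and -0.09 in CL1-5, where all genes had -0.00. Ignoring sign, the median size was 0.20 in CL1-0 against 0.28 for all genes, and 0.13 in CL1-5 against 0.13. Between the lines 3 of 8 genes were called, a share beside 31.3% of 15969 genes, and 9 of 25 probe sets, beside 33.2% of 30513. The 9 probe sets were 5 higher in CL1-5, beside 21.1%, and 4 lower, beside 12.1%. Of these genes 2 were higher in CL1-5, beside 17.1% of all genes, and 1 was lower, beside 14.2%. These shares lie near the background or rest on a few genes, and the values that follow describe single genes and probe sets.

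**Figure D1:**
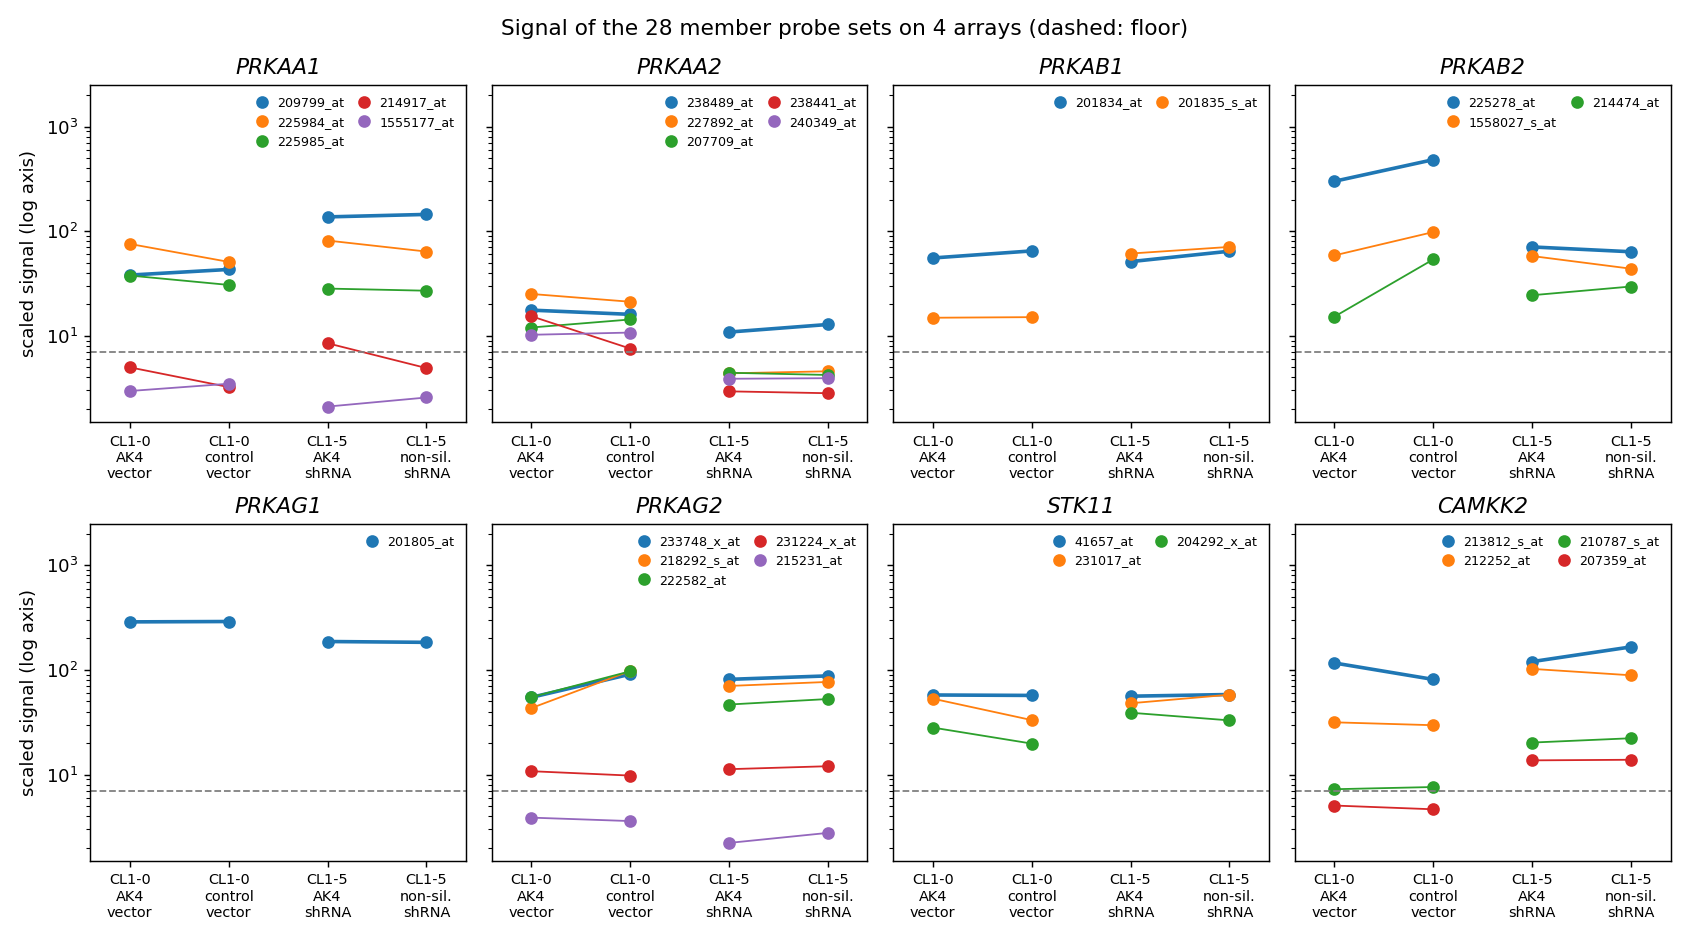
Scaled signal (log axis) of the 28 probe sets of the 8 genes on the 4 arrays, 1 panel per gene and 1 colour per probe set, with the tested array left of its control in each line, a thick line for the brightest probe set and a dashed line at the floor of 6.94. PRKAB2 is brightest in CL1-0 and PRKAA1 probe set 209799_at in CL1-5, while the other PRKAA1 probe sets lie at like levels in both lines.

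The catalytic subunits were read by 5 probe sets each. PRKAA1 encodes α1, the catalytic subunit present in most cell types, at chr5:40759389-40798374. Its brightest probe set, 209799_at, read 38.0 with the AK4 vector against 43.1 with the control vector in CL1-0, and 137 with AK4 shRNA against 145 with non-silencing shRNA in CL1-5. Both CL1-5 arrays thus lay above both CL1-0 arrays, and within a line the arrays lay close together. The log2 ratios were -0.18 for the vector, -0.08 for the shRNA and 1.75 for CL1-5 over CL1-0. Averaged over all probe sets of the gene, the vector ratio was 0.14 and the shRNA ratio 0.13, both with the sign turned.

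The other PRKAA1 probe sets did not share the difference between lines. Probe set 225984_at read 75.5 with the AK4 vector against 50.8 with the control vector, and 81.4 with AK4 shRNA against 63.8 with non-silencing shRNA. It was higher on the altered array of each line, by 0.57 and 0.35 on the log2 scale, and 94.2% of probe sets had a ratio at or below 0.35 in CL1-5. Probe set 225985_at read 37.6 against 30.6 in CL1-0 (AK4 vector against control vector) and 28.3 against 27.0 in CL1-5 (AK4 shRNA against non-silencing shRNA). Between the lines these probe sets differed by 0.33 and -0.18 where 209799_at differed by 1.75, and the gene stood at 0.38 when all its probe sets were averaged, which ends the call. The fourth, 214917_at, lay above the floor only with AK4 shRNA, at 8.48.

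PRKAA2 encodes α2, the catalytic subunit known for its role in muscle, at chr1:56645314-56715335. Its signals were low on every array. Probe set 238489_at, above the floor on all 4, read 17.6 with the AK4 vector against 16.0 with the control vector, and 10.8 with AK4 shRNA against 12.8 with non-silencing shRNA. The other 4 probe sets lay above the floor on both CL1-0 arrays, from 7.54 to 25.1, and below it on both CL1-5 arrays, from 2.82 to 4.58. All 5 were thus dimmer in CL1-5, and for those 4 the ratio is a bound that the floor sets and that could only point down. CL1-5 non-silencing shRNA was at least 3.05-fold lower than CL1-0 control vector for 227892_at and at least 2.06-fold lower for 207709_at, while 238489_at had a log2 ratio of -0.32. With no rescaling of the arrays the ratio of 238489_at was 0.55, where all genes had a median of 0.83. In the vector comparison 238441_at was called, at 15.4 with the AK4 vector against 7.54 with the control vector, the second of which lies just above the floor. The remaining probe sets of PRKAA2 lay between -0.25 and 0.25 there.

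The start-site windows of both catalytic genes are shown because their brightest probe sets had opposite signs between the control arrays, at 1.75 and -0.32. The other PRKAA1 probe sets did not share that difference. The other PRKAA2 ratios are bounds that could only point down, and with no rescaling the -0.32 of PRKAA2 became 0.55. The windows run from 250 bases before to 50 bases after a RefSeq start site on GRCh38.p14. They lie at chr5:40798128-40798427 on the minus strand for PRKAA1 and chr1:56645064-56645363 on the plus strand for PRKAA2. The PRKAA1 window is not set on the outer end of the gene span, chr5:40798374, and most of it lies inside that span. Capitals mark the GC box GGGCGG, the motif bound by SP1-type factors, on either strand.
PRKAA1: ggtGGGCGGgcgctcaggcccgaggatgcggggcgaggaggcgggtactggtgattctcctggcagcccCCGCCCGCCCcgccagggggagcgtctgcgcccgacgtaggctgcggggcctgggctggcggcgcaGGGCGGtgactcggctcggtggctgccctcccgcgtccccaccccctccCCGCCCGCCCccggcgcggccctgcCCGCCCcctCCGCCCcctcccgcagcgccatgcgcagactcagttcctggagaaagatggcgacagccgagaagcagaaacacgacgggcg
PRKAA2: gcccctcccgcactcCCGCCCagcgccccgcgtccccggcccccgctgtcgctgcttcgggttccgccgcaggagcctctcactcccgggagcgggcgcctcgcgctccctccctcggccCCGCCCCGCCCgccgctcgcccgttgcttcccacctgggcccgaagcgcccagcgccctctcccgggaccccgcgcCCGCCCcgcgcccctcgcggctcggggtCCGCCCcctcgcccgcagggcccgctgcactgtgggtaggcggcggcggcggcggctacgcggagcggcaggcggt
The PRKAA1 window holds 8 GC boxes and the PRKAA2 window 5, some of them overlapping, and 45.0% of 35116 such windows hold at least 1. GC content was 77.0% and 82.7%, against a median of 58.7% over all windows. Neither window holds the letters CCAAT (34.6% of windows), TATAAA (11.5%), the E-box CACGTG (7.26%) or the AP-1 motif TGACTCA (4.95%). A match of letters is a description and does not show binding.

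The scaffold subunits held the widest range of the set. PRKAB2 encodes β2, which joins α to γ and carries a glycogen-binding module, at chr1:147155106-147172470. Its brightest probe set, 225278_at, read 299.7 with the AK4 vector against 482 with the control vector, and 70.7 with AK4 shRNA against 63.6 with non-silencing shRNA. Both CL1-0 arrays lay far above both CL1-5 arrays. The range over the 4 arrays was 2.92 on the log2 scale, and 2.98% of the 12797 genes above the floor on all 4 arrays had a range as wide.

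All 3 PRKAB2 probe sets were lower with the AK4 vector. Probe set 1558027_s_at read 58.6 with the AK4 vector against 98.0 with the control vector, and 57.8 with AK4 shRNA against 43.8 with non-silencing shRNA. Probe set 214474_at read 15.2 with the AK4 vector against 53.7 with the control vector, and 24.4 with AK4 shRNA against 29.6 with non-silencing shRNA. The log2 ratios in CL1-0 were -0.69 for 225278_at, -0.74 for 1558027_s_at and -1.82 for 214474_at, of which only the dimmest probe set passed 2-fold. For 214474_at, 0.124% of all measured probe sets had a ratio at or below its value. The mean of all probe sets was -1.08, which passes 2-fold. In CL1-5 the ratios with AK4 shRNA were 0.15, 0.40 and -0.28 in the same order, so the probe sets did not share a sign. The BioB control was also lower on the AK4 vector array, and its part in these ratios was not tested.

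Between the control arrays PRKAB2 was lower in CL1-5 by all 3 probe sets, at -2.92, -1.16 and -0.86, the first of them 7.59-fold. The median log2 ratio of all genes was 0.13 in this comparison, so relative to it the brightest probe set stood at -3.05. This comparison shares the CL1-0 control vector array with the vector comparison, and on that array every PRKAB2 probe set was at its highest. Setting the CL1-5 AK4 shRNA array over the CL1-0 AK4 vector array in place of the controls gave -2.08, -0.02 and 0.68. The difference between the lines was therefore present with either pair of arrays for 225278_at alone.

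PRKAB1 encodes β1, the other scaffold subunit, at chr12:119667952-119681619. Probe set 201834_at read 55.4 with the AK4 vector against 64.7 with the control vector, and 51.1 with AK4 shRNA against 64.3 with non-silencing shRNA. Probe set 201835_s_at read 14.9 with the AK4 vector against 15.1 with the control vector, and 61.1 with AK4 shRNA against 70.7 with non-silencing shRNA. Both were lower on the altered array of each line. The log2 ratios were -0.22 and -0.02 in CL1-0 and -0.33 and -0.21 in CL1-5, where 5.42% of genes had a ratio at or below -0.33. Between the lines the probe sets disagreed: 201834_at differed by -0.01 and 201835_s_at by 2.23, or 4.69-fold higher in CL1-5. Its own mean over both, 1.11, would pass 2-fold.

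**Figure D2:**
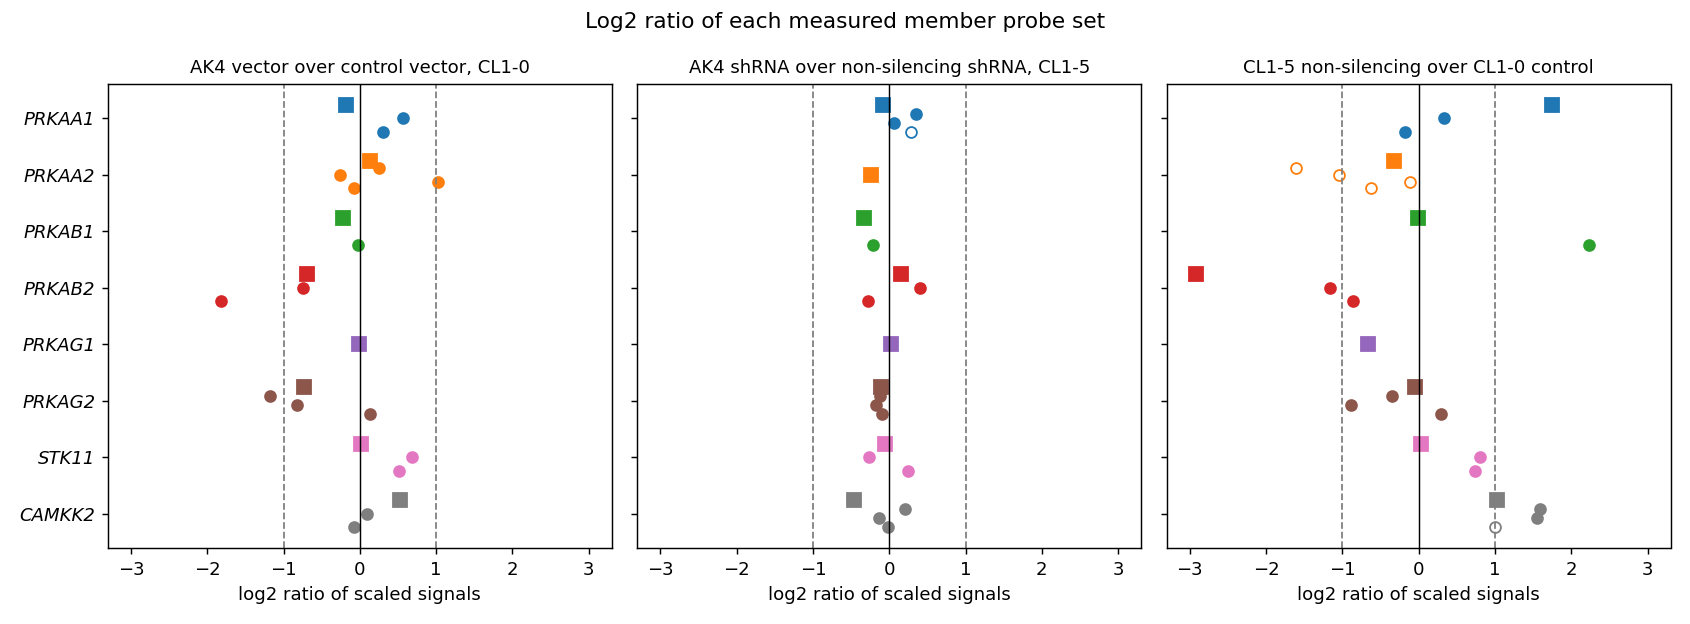
Log2 ratio of each measured probe set of the 8 genes in the 3 comparisons, with a square for the brightest probe set of a gene, an open symbol for a ratio set in part by the floor, and dashed lines at 2-fold. All 3 PRKAB2 probe sets and 3 of 4 measured PRKAG2 probe sets lie left of 0 for the AK4 vector, and the probe sets of PRKAA1 and PRKAB1 spread widely between the lines.

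The nucleotide-binding subunits differed from each other in how they varied. PRKAG2 encodes γ2, a subunit in which inherited changes cause heart disease, at chr7:151556127-151877115. Its brightest probe set, 233748_x_at, read 54.7 with the AK4 vector against 91.0 with the control vector, and 81.2 with AK4 shRNA against 87.7 with non-silencing shRNA. Probe set 218292_s_at read 43.2 with the AK4 vector against 97.7 with the control vector, and 70.3 with AK4 shRNA against 76.8 with non-silencing shRNA. Probe set 222582_at read 54.9 with the AK4 vector against 97.0 with the control vector, and 46.7 with AK4 shRNA against 52.7 with non-silencing shRNA. The AK4 vector array was lower for these 3, with log2 ratios of -0.74, -1.18 and -0.82, of which 218292_s_at passed 2-fold. A ratio at or below that of 218292_s_at was found for 0.898% of probe sets. The dim probe set 231224_x_at, at 10.8 with the AK4 vector against 9.77 with the control vector, went the other way at 0.14.

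With AK4 shRNA all 4 measured PRKAG2 probe sets were lower, but only by -0.17 to -0.09. Between the control arrays they lay between -0.88 and 0.30 and none was called. The brightest PRKAG2 probe set read 54.7 with the AK4 vector and between 81.2 and 91.0 on the other 3 arrays.

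PRKAG1 encodes γ1, the widely present nucleotide-binding subunit, at chr12:49002274-49018776, and had 1 probe set. It read 288 with the AK4 vector against 290.2 with the control vector, and 187 with AK4 shRNA against 183 with non-silencing shRNA. Within each line the arrays were nearly equal, with log2 ratios of -0.01 and 0.03. CL1-5 was lower than CL1-0 by -0.66 on the log2 scale, under 2-fold, and with no rescaling the ratio was 0.21.

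The start-site windows of PRKAB2 and PRKAG2 are shown because these genes were lower together with the AK4 vector. They lie at chr1:147172421-147172720 and chr7:151877066-151877365, both on the minus strand of GRCh38.p14, and the second is 1 of 5 RefSeq windows of PRKAG2. Which of the 5 starts these cells use was not read by the arrays. Capitals mark GC boxes (GGGCGG) and the CCAAT box, on either strand.
PRKAB2: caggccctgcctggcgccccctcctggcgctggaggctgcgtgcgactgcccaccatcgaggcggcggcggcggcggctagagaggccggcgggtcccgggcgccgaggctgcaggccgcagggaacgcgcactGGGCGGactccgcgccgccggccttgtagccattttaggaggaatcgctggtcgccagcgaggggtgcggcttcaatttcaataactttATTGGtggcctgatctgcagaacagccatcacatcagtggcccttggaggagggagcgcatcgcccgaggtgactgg
PRKAG2: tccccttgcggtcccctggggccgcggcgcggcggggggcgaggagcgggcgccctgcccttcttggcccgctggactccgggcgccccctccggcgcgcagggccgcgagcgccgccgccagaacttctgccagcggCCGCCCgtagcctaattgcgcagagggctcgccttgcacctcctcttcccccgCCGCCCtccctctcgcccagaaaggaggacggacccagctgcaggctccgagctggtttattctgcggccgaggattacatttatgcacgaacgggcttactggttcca
The PRKAB2 window holds 1 GC box and 1 CCAAT box, the second on the reverse strand at position -27 from the gene start, and the PRKAG2 window holds 2 GC boxes and no CCAAT. Neither holds the TATA, E-box or AP-1 letters spelled out above. GC content was 68.7% and 71.3%. The PRKAG2 windows not shown differ from the one printed. That at chr7:151633062-151633361 holds a CCAAT box on the reverse strand, and that at chr7:151632184-151632483 holds 4 GC boxes. The remaining PRKAG2 windows hold none of these motifs.

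The upstream kinases were STK11, whose product LKB1 is the main kinase that activates AMPK and a tumour suppressor lost in part of lung adenocarcinomas, and CAMKK2, the calcium-dependent kinase. STK11, at chr19:1205778-1228431, was read above the floor by all of its 3 probe sets. The brightest, 41657_at, read 57.6 with the AK4 vector against 57.0 with the control vector, and 56.1 with AK4 shRNA against 58.2 with non-silencing shRNA. Its range over the 4 arrays was 0.05 on the log2 scale. Probe set 231017_at read 53.1 with the AK4 vector against 33.1 with the control vector, and 48.0 with AK4 shRNA against 57.9 with non-silencing shRNA. Probe set 204292_x_at read 28.1 with the AK4 vector against 19.8 with the control vector, and 39.0 with AK4 shRNA against 32.9 with non-silencing shRNA. The CL1-0 control vector array was lowest for these 2, which gave log2 ratios of 0.68 and 0.51 for the vector and 0.81 and 0.74 between the control arrays. With AK4 shRNA they went opposite ways, at -0.27 and 0.24. STK11 transcript was thus above the floor in both lines, which says nothing of the state of its protein.

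CAMKK2, at chr12:121237692-121297819, was brighter in CL1-5 by all 4 probe sets. Its brightest, 213812_s_at, read 116 with the AK4 vector against 81.1 with the control vector, and 120.0 with AK4 shRNA against 166 with non-silencing shRNA. The vector and shRNA ratios had opposite signs, at 0.52 and -0.47, and 1.74% of genes had a ratio at or below -0.47 in CL1-5. The altered arrays of both lines thus lay close to each other, between the controls. The other probe sets did not show this. Probe set 212252_at read 31.5 with the AK4 vector against 29.6 with the control vector, and 102 with AK4 shRNA against 88.9 with non-silencing shRNA, for ratios of 0.09 and 0.20. Probe set 210787_s_at read 7.23 with the AK4 vector against 7.60 with the control vector, close to the floor, and 20.2 with AK4 shRNA against 22.2 with non-silencing shRNA. Probe set 207359_at lay below the floor in CL1-0 and had the same deposited value on both CL1-5 arrays.

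Between the control arrays the CAMKK2 ratios were 1.03 for 213812_s_at, 1.59 for 212252_at and 1.55 for 210787_s_at, and 207359_at was at least 1.99-fold higher in CL1-5. With the AK4 shRNA array over the AK4 vector array they were 0.04, 1.70, 1.48 and 0.98. The brightest probe set thus lost its difference with the other pair of arrays, while 212252_at and 210787_s_at remained past 2-fold. The beta-actin ratio also differed between the lines, and its part in these values, as in those of PRKAA1, PRKAA2, PRKAB1 and PRKAB2, was not tested, since the probes could not be placed within the transcripts.

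**Figure D3:**
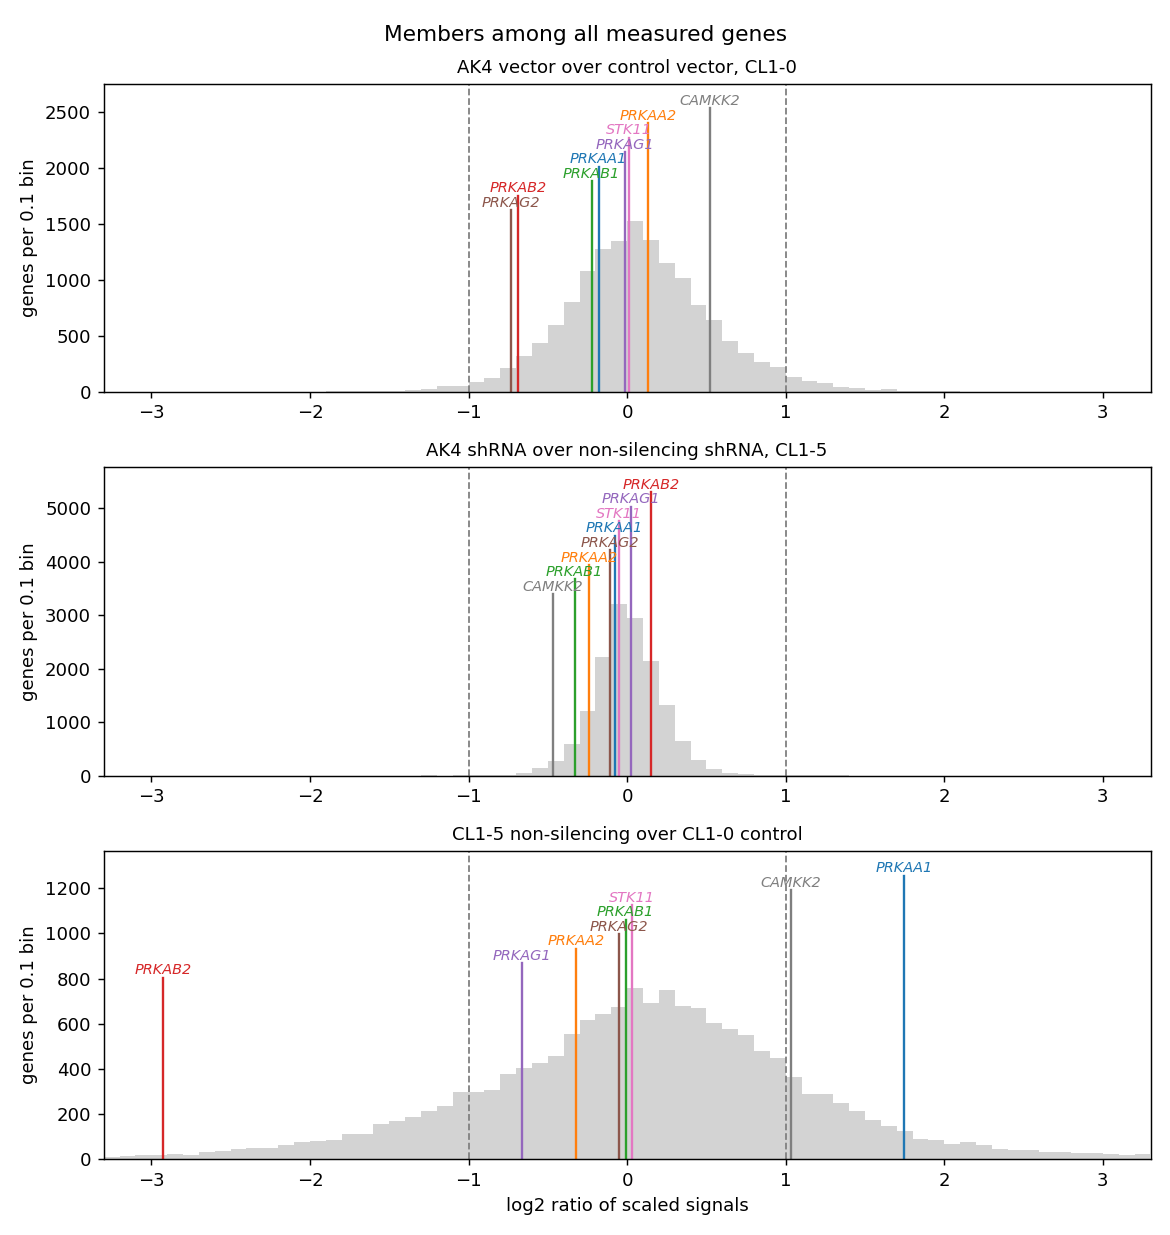
Distribution of log2 ratios of all measured genes (grey bars, genes per bin of 0.1) in the 3 comparisons, with a coloured line at each of the 8 genes, read by its brightest probe set, and dashed lines at 2-fold. PRKAB2 and PRKAG2 lie in the lower tail for the AK4 vector, CAMKK2 in the lower tail for AK4 shRNA, and PRKAB2 in the lower tail between the lines.

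The AK4 comparisons share no array, so their signs can be set side by side. Of the 8 genes, 5 had opposite signs with the AK4 vector and with AK4 shRNA, a share of 62.5%, where 46.0% of 13735 genes did. They were PRKAA2 (0.13 and -0.24), PRKAB2 (-0.69 and 0.15), PRKAG1 (-0.01 and 0.03), STK11 (0.01 and -0.05) and CAMKK2 (0.52 and -0.47). For PRKAG1 and STK11 these ratios lie near 0 and their signs turned with the scaling. With quantile normalization the vector ratio was 0.02 for PRKAG1 and -0.06 for STK11, and 3 of 8 genes had opposite signs, where 45.3% of genes did. With loess, median scaling or no rescaling the STK11 vector ratio was -0.06, -0.08 and -0.01, and 4 of 8 had opposite signs. In size, only CAMKK2 exceeded in both lines the pooled SD between probe sets of the same gene, 0.41 in CL1-0 and 0.22 in CL1-5, and its other probe sets did not share that pattern. This SD describes scatter among probe sets, which may read different transcripts, and cannot stand in for a replicate error.

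The other genes of the pathway were taken from 7 lists with 49 genes, of which 46 had a probe set with 1 gene symbol. With the AK4 vector 0 of 45 measured genes were called, beside 4.39% of all genes. Of the 45, 17 lay above 0 and 28 below, where 56.1% of all genes lay above 0. Their median log2 ratio was -0.15 where all genes had 0.05. With the mean of all probe sets of each gene it was -0.06, where all genes had 0.03. The largest ratios were those of SESN2, a stress-induced sestrin that restrains mTORC1, at -0.96 (-1.09 over its measured probe sets, past 2-fold), of CAMKK1, the relative of CAMKK2, at 0.92, and of MARK4, a microtubule-affinity kinase that LKB1 activates, at 0.91. MARK4 stood at 0.39 over its measured probe sets. The largest of the other lists, each within its own list, were TBC1D4, a Rab GTPase-activating protein in glucose uptake, at 0.78, FLCN, the folliculin tumour suppressor, at -0.61, CAB39, the MO25 partner of LKB1, at -0.33 and PPM1E, a phosphatase, at -0.26. FLCN stood at -0.29 over its measured probe sets.

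With AK4 shRNA 0 of 43 measured pathway genes were called, beside 0.104% of all genes. Of the 43, 26 lay above 0 and 17 below, where 49.7% of all genes lay above 0, and their median was 0.04. The largest in their lists were the transcription factor FOXO3 at 0.42, the AMPK-related kinase NUAK1 at -0.36, the folliculin partner FNIP1 at 0.29, PRKAG3, the gene of the third γ subunit, at -0.16, the phosphatase PPM1A at 0.14, CAB39L at -0.10 and SESN2 at 0.10. Over their measured probe sets FOXO3 stood at 0.16, FNIP1 at -0.23, PPM1A at -0.10 and SESN2 at -0.00, so FNIP1 and PPM1A changed sign and SESN2 lay at 0. PRKAG3 read from 6.78 to 8.49, near the floor on all 4 arrays and below it with the AK4 vector.

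Between the control arrays 4 of 45 pathway genes were at least 2-fold higher in CL1-5, beside 17.1% of all genes. Another 12 were at least 2-fold lower, beside 14.2%, and together they made 35.6%, beside the background of 31.3% given above. The median was -0.16 where all genes had 0.13. Averaging the probe sets of each gene left 6 higher and 7 lower, with a median of 0.02 where all genes had 0.18. With no rescaling 18 were higher and 5 lower, where the median of all genes was 0.83. Lower in CL1-5 were PFKFB2, a phosphofructokinase-2 that AMPK phosphorylates, at -3.44, SESN2 at -3.06, FLCN at -2.57, FNIP1 at -2.26, FOXO3 at -1.69, CAB39L at -1.67, BRSK1, a brain-enriched kinase that LKB1 activates, at -1.5, and MFF, a mitochondrial fission factor, at -1.43. PPM1E had a ratio of -2.25 that is a bound, since it lay below the floor in CL1-5. Higher were GYS1, glycogen synthase, at 2.81 and CAMKK1 at 1.03. Up to 4 called genes of each list are named, so further called substrates of AMPK, some higher and some lower, are left out. Several had probe sets that differed: over all measured probe sets PFKFB2 stood at -0.88, FLCN at -0.51, FOXO3 at -0.44, MFF at -0.25 and CAB39L at -1.08, while SESN2 stood at -3.09, FNIP1 at -1.82 and CAMKK1 at 1.14.

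**Figure D4:**
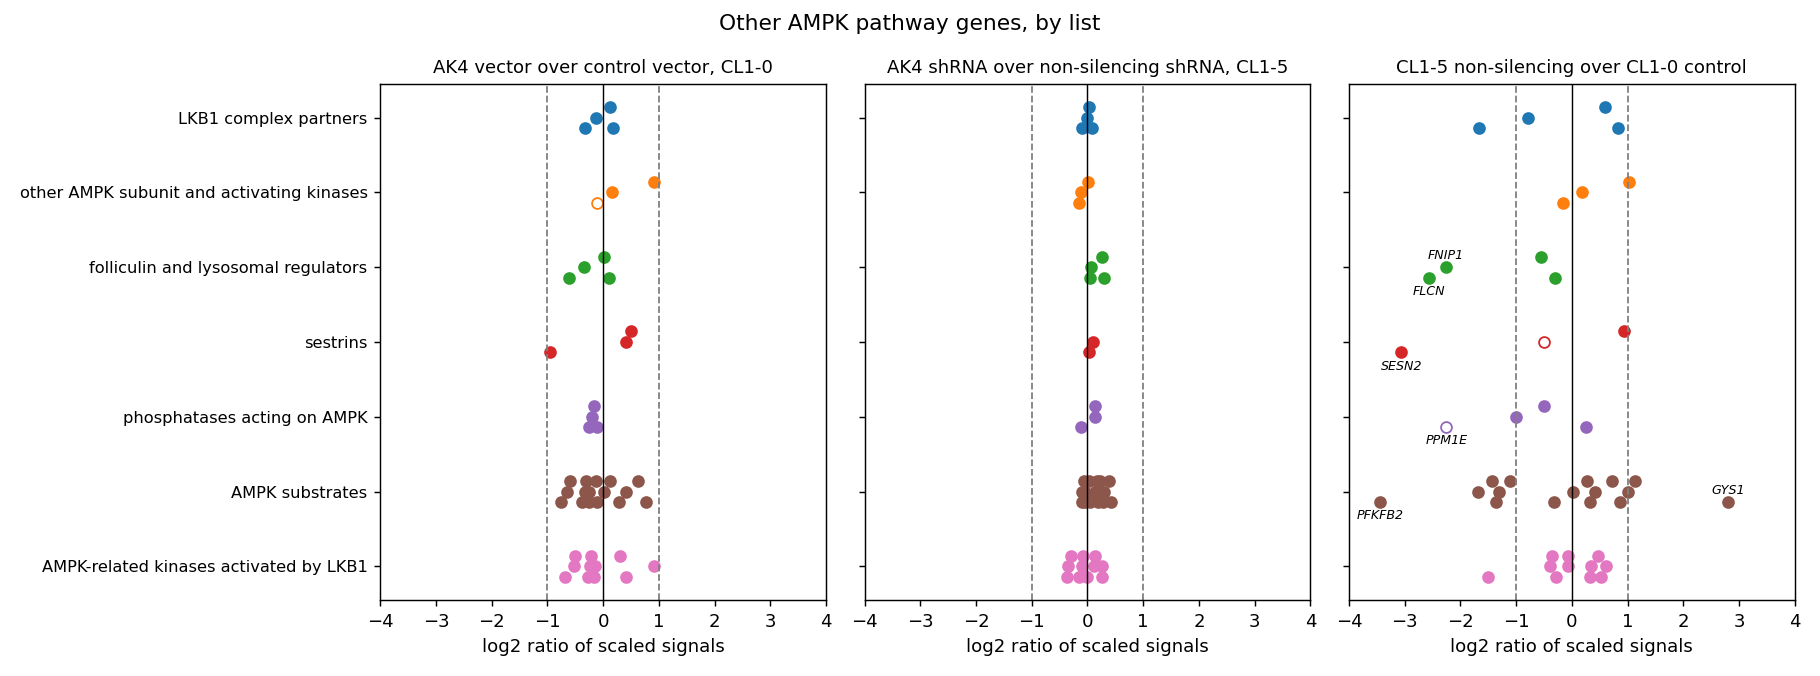
Log2 ratios of the measured genes of the 7 pathway lists in the 3 comparisons, 1 point per gene read by its brightest probe set, open where the floor sets part of the ratio, named where the ratio is at least 2 in size, with dashed lines at 2-fold. No gene passes 2-fold with the AK4 vector or AK4 shRNA, and 16 of 45 do between the lines.

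Genes with the most similar pattern were sought for the 2 members with the widest range, by the root mean square difference of log2 levels centred over the 4 arrays, among 12796 other genes. For PRKAB2 they were BEGAIN, MFAP3L and IRS2, with differences of 0.04, 0.06 and 0.06. BEGAIN read 38.1 with the AK4 vector against 60.6 with the control vector, and 9.10 with AK4 shRNA against 7.55 with non-silencing shRNA. For PRKAA1, by 209799_at, they were A4GALT, EID1 and SPATA16, each with a difference of 0.04. SPATA16 lay at the floor with the AK4 vector and near it with the control vector, at 8.41. EID1 read 664 with the AK4 vector against 700.1 with the control vector, and 2364 with AK4 shRNA against 2425 with non-silencing shRNA. Over 4 arrays many genes can be this close, and the measure says nothing beyond the levels.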

How the data were processed

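Total RNA, 6 µg per sample, was labelled with biotin and hybridised to 1-colour Affymetrix arrays, per the labels' protocols. Each deposited value is the linear intensity of a probe set on an array, and detection calls were not used. MAS5 was used, per the submitters' processing notes; the sources used here give neither its version nor its scaling target, and whether the deposited values are MAS5 signals is not settled.

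Each array was scaled to a common mean after trimming 2% at each end, over all but the 62 control probe sets. Values under the 40th percentile of all scaled values (6.94) were set to it before log2. Probe sets were named through the platform annotation, and 99.9% of the 41097 with 1 symbol were updated through their gene identifier. A gene was read by its probe set with the highest mean log2 level. Each of the 3 comparisons gave log2 ratios, called at 2-fold, with no test, since each group was 1 array. Precision is limited by there being 4 arrays.

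The 8 genes and the pathway and marker lists were chosen with earlier results of these data known. Named genes were all 8 with every probe set, AK4, per pathway list and comparison up to 4 genes past 2-fold or the largest where none passed, and the 3 genes nearest in pattern to the 2 members of widest range. The alternatives were quantile normalization and cyclic loess (limma 3.58.1), median scaling, a floor at the 60th percentile, a pseudocount of 1 with no floor, the mean of all probe sets, removal of the _x_at and _s_at probe sets, and a 1.5-fold threshold, with 3 more chosen after seeing the data. The calculation was tested on simulated data. Python 3.11.15, numpy 2.4.6 and pandas 2.3.3 were used. Sequences are from RefSeq on GRCh38.p14, where all 8 genes matched by symbol.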

Additional observations from a re-analysis of the deposited data

How the results depend on the processing

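In all, 11 alternatives were run, 3 of them chosen after seeing the data: deposited values with no rescaling, only features above the floor on both arrays, and the AK4 shRNA and AK4 vector arrays in place of the controls between the lines. Of 223 ratios of the 8 genes under an alternative, 205 had the sign first given, and of the called ratios 0 changed sign. With the mean of all probe sets 1 of the 8 genes (PRKAB2) passed 2-fold for the AK4 vector, and 365 of all genes did in place of 644; for AK4 shRNA 6 did in place of 16. At 1.5-fold the AK4 vector comparison held 2 of the 8 genes, beside 2801 of 14677 genes measured. The shRNA comparison held 0 of the 8, beside 216 of 15314. Between the lines 4 of the 8 passed, beside 8583 of 15969 in place of 5006. Of the set's probe sets, 8 passed 1.5-fold for the vector and 16 between the lines, and the share over all probe sets was not counted. With the _x_at and _s_at probe sets removed, 5 probe sets of the set were called between the lines in place of 9. The share over all remaining probe sets was not counted. With no rescaling the median of the 8 genes between the lines was 0.84 and 7994 of all genes were called, where the median of all genes was 0.83.

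For the AK4 vector 73.4% of called genes were higher, and 66.5%, 66.0% and 59.0% under quantile normalization, loess and median scaling, or 70.2% with no rescaling. For AK4 shRNA the share was 87.5%, and between 87.5% and 88.9% under these 4 scalings. Between the lines 54.6% were higher, and 42.9%, 42.1% and 41.4% under the same, or 90.4% with no rescaling. CAMKK2 was under 2-fold between the lines at 0.96 with quantile normalization and 0.81 with median scaling, and PRKAA2 passed it, lower in CL1-5, with loess. No paired analysis was possible because each group was 1 array. Of the 28 probe sets of the set, 8 were below the floor on at least 1 array, 4 of them of PRKAA2, and give bounds or no ratio there.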
